A study of Homo sapiens with 9 samples.

Results

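DRIP-seq peak lists of control-hairpin SH-SY5Y cells were compared with and without digestion by RNase H. The comparison holds 4 of the 9 libraries of the series: 3 untreated libraries (shNC replicates 1, 2 and 3) and 1 library treated with RNase H. Their groups were taken from the labels. SH-SY5Y is an established human neuroblastoma line of adrenergic, neuron-like character. In both groups the cells carried a stably integrated non-targeting short hairpin RNA (shNC) delivered by lentivirus, and the selection agent was puromycin, given by the labels as 2 µg/mL for 2 weeks and then 1 µg/mL. Nucleic acids were extracted and cut with the restriction enzymes BsrGI, EcoRI, HindIII, SspI and XbaI. For the treated library 6 µg of this material was digested with RNase H for 6 h, so the enzyme acted on purified nucleic acid and not in cells. The treated sample was made as the negative control of the assay, per the labels' protocol. The other libraries of the series are 3 untreated and 1 treated library of cells with a hairpin against TDP-43 (shTDP43) and 1 input library. With 1 treated library there is no replicate of the treatment, so treated values are given beside the 3 untreated ones and no p-value was computed. The labels do not say whether the untreated replicates were separate cultures, so their SD may be technical.

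An R-loop forms when an RNA strand pairs with the DNA template strand and displaces the other DNA strand. R-loops form during transcription, mostly over GC-rich promoters, along transcribed genes and past polyadenylation sites, and they are removed in cells by RNase H enzymes and helicases. The antibody S9.6 binds DNA:RNA hybrids and is used to pull them down in DRIP-seq. RNase H degrades the RNA strand of such a hybrid and leaves the DNA. A peak that is called without the enzyme and not after it is therefore the usual mark of a hybrid in this assay.

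The untreated lists held 73353, 69453 and 70819 peaks on chromosomes 1 to 22 and X, and they covered 142, 130 and 125 Mb. The treated list held 15504 peaks covering 10.5 Mb, which is 21.8% of the untreated mean number and 7.94% of the untreated mean length. Median peak width was 458 bp after treatment and 733 ± 34.0 bp before (SD, n = 3). The widest treated peak was 16518 bp, and the widest untreated peaks ran from 64758 to 139922 bp. Depth differed too: the background pileup recovered from the lists, a relative measure of sequencing depth, was 2.01, 1.93 and 1.62 in the untreated libraries and 0.936 in the treated one. Untreated shTDP43 replicate 1 had a background pileup of 1.05 and 57204 peaks covering 91.6 Mb. It is given below as an untreated library of similar depth, although its hairpin differs.

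Most genes with hybrid peaks had none after RNase H. Covered length was the number of bases under peaks within a RefSeq gene span plus 1 kb on each side. The share a gene kept is its treated covered length over the untreated mean, wherever in the window the treated peaks lay. Over all chromosomes used, 55.6% of the treated length lay under an untreated shNC peak. Of 19970 protein-coding genes, 12923 had an untreated mean of at least 500 bp. Of these, 8303 had no treated peak (percent of genes: 64.2%, 95% Wilson interval 63.4 to 65.1), 4087 kept some coverage below 50% of the untreated mean, and 533 kept at least 50% (4.12%). The last count was 228 with peaks limited to a −log10 q of 10 or more, and 264 with an untreated mean of at least 2000 bp. The treated value lay below every untreated library in 12447 genes (96.3%) and above every one in 108 (0.836%). The median gene kept 0% of its covered length, and the summed length went from 124 Mb to 6.45 Mb, or 5.19%. In untreated shTDP43 replicate 1, of similar depth, 828 of the same genes had no peak (6.41%) and 9326 reached 50% of the shNC untreated mean. When each untreated shNC library was set against the mean of the other 2, between 0.163% and 1.22% of genes had no peak. Overlapping genes share peaks, so these counts are not of independent loci.

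**Figure D1:**
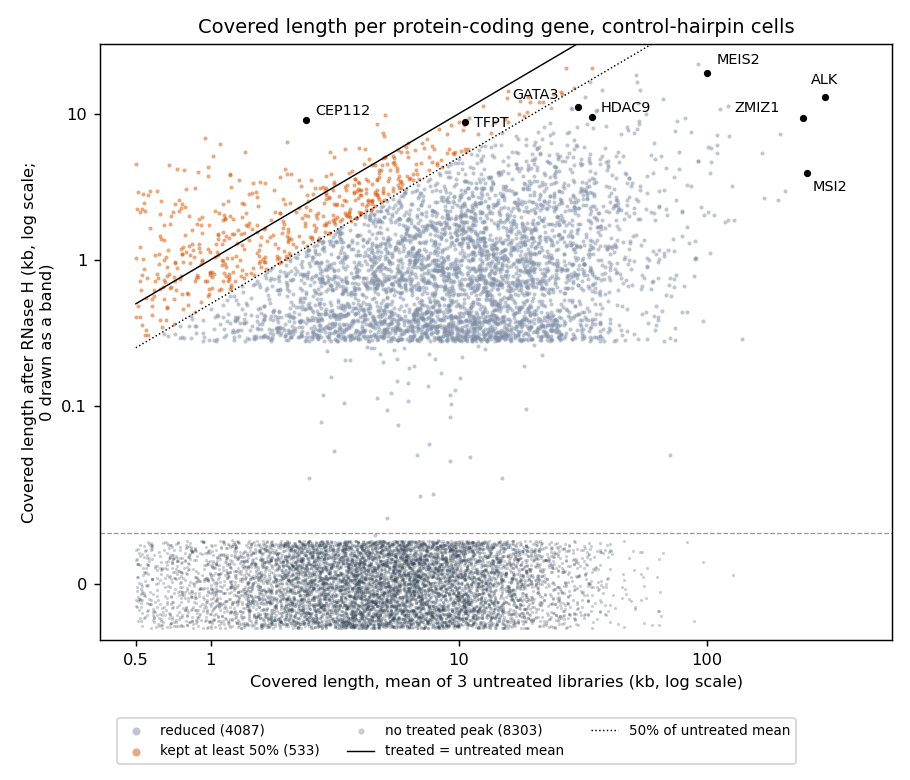
Covered length per protein-coding gene, in kb on log axes, as the mean of the 3 untreated shNC libraries (x) and in the RNase H-treated shNC library (y). Each point is 1 of 12923 genes, and the 8303 genes without a treated peak are drawn as a band with random height. Genes that kept at least 50% of the untreated mean lie mostly at low untreated coverage.

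Genes that lost all peaks were ranked by untreated covered length, which favours long genes under wide peaks. Several of those named here encode regulators of transcription, and this share was not compared with other genes. AOPEP, an aminopeptidase gene on chromosome 9 from 94726699 to 95150224, was covered over 138, 117 and 128 kb in untreated replicates 1 to 3 and had no treated peak. KDM4B, a demethylase of histone H3 on chromosome 19 from 4969113 to 5153598, had 107, 98.8 and 82.7 kb untreated and 0 kb treated. BCOR, a transcriptional corepressor gene on chromosome X, had 92.6, 86.3 and 87.4 kb and then 0 kb. Untreated peaks covered 30.0%, 51.6% and 69.3% of the windows of these 3 genes, and no treated peak fell in any of them. MAML3, a Notch coactivator gene, had 76.7, 58.3 and 60.8 kb without treatment, and ZNF423, a zinc finger transcription factor gene, had 95.1, 77.2 and 77.0 kb. Neither had a treated peak. Further genes of this group were MPRIP and TNS1, which act at the actin cytoskeleton and focal adhesions, the SRC inhibitor gene SRCIN1 and LOC107984156, with untreated means of 64.4, 64.1, 63.8 and 63.8 kb. In the treated shTDP43 library, AOPEP had 0.286 kb and ZNF423 0.358 kb, and the others named here had no peak. TARDBP, the target of the shTDP43 hairpin, had 14.2, 10.3 and 12.7 kb untreated and none treated in shNC.

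The 5 genes with the longest untreated coverage were reduced to small remnants. ALK, the gene of a receptor kinase mutated in some neuroblastomas, on chromosome 2 from 29192774 to 29921586, had 328, 277 and 296 kb untreated and kept 4.37% of the mean. MSI2, an RNA-binding protein gene, went from 276, 242 and 242 kb to 3.93 kb. The axon guidance gene SLIT3 went from a mean of 247 ± 12.9 kb to 9.38 kb (SD, n = 3). ZMIZ1, a transcriptional coregulator gene whose window lay under peaks over 98.1% of its length, went from 245 ± 2.17 kb to 9.36 kb. GSE1 went from 207 ± 14.5 kb to 2.96 kb. In each of these genes the treated library lay far below all 3 untreated ones. The longest treated coverage of any gene over 200 kb was at MEIS2, a homeobox gene, which kept 18.9 kb of 106, 90.3 and 104 kb.

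Genes that kept at least 50% were of different kinds. The first kind was compact, and all but C19orf81 of the 8 named here lay under untreated peaks from end to end. It was the smaller part: 77 of the 533 had windows covered whole in all 3 untreated libraries (14.4%). Windows covered over at least 75% made up 20.6% of the 533, near the 19.9% of all 12923 genes. P2RY11, a purinergic receptor gene on chromosome 19 from 10111693 to 10115372, was covered over its whole window of 5.68 kb in all 4 libraries. FKBP2, a prolyl isomerase gene of the endoplasmic reticulum that shares its locus with LOC114841035, was covered over 5.04 kb in all 4. DNLZ, a mitochondrial chaperone partner, was covered over 6.26 kb in all 4. ACTB, which encodes beta-actin, kept 5.14 of 5.45 kb, and EGR1, an immediate-early transcription factor gene, kept 5.47 of 5.83 kb. ZNF513 kept 5.01 of 5.50 kb, JMJD4 5.93 of 6.11 kb and C19orf81 7.92 of 8.34 kb, where untreated peaks covered 70.3% of the window. At these 8 genes the untreated libraries did not differ from one another in covered length. In all but C19orf81 it was at its ceiling, the whole window, so a change in amount need not show in it. The peak ends at C19orf81 were not checked for cutting sites. In the treated shTDP43 library P2RY11 was again covered whole, EGR1 kept 5.32 kb and ACTB 3.78 kb.

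PRR33 and CTNNA2 exceeded their untreated coverage. PRR33 had 6.52, 5.56 and 3.12 kb untreated and 9.79 kb treated, and it lies under the widest treated peak, of 16518 bp, at LSP1. CTNNA2, a catenin gene of neuronal adhesion that spans 1463 kb, had 5.32, 4.32 and 5.40 kb untreated and 7.06 kb treated. It stands for the second kind, long genes of which untreated peaks covered very little. Over the 533 genes that kept at least 50%, the median span was 109.6 kb, against 29.3 kb over all 12923. Their median untreated coverage was 1.98 kb, or 1.37% of the window, against 6.01 kb and 23.5% over all. Whether the treated peaks of these genes lay under their untreated peaks was not tested.

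**Figure D2:**
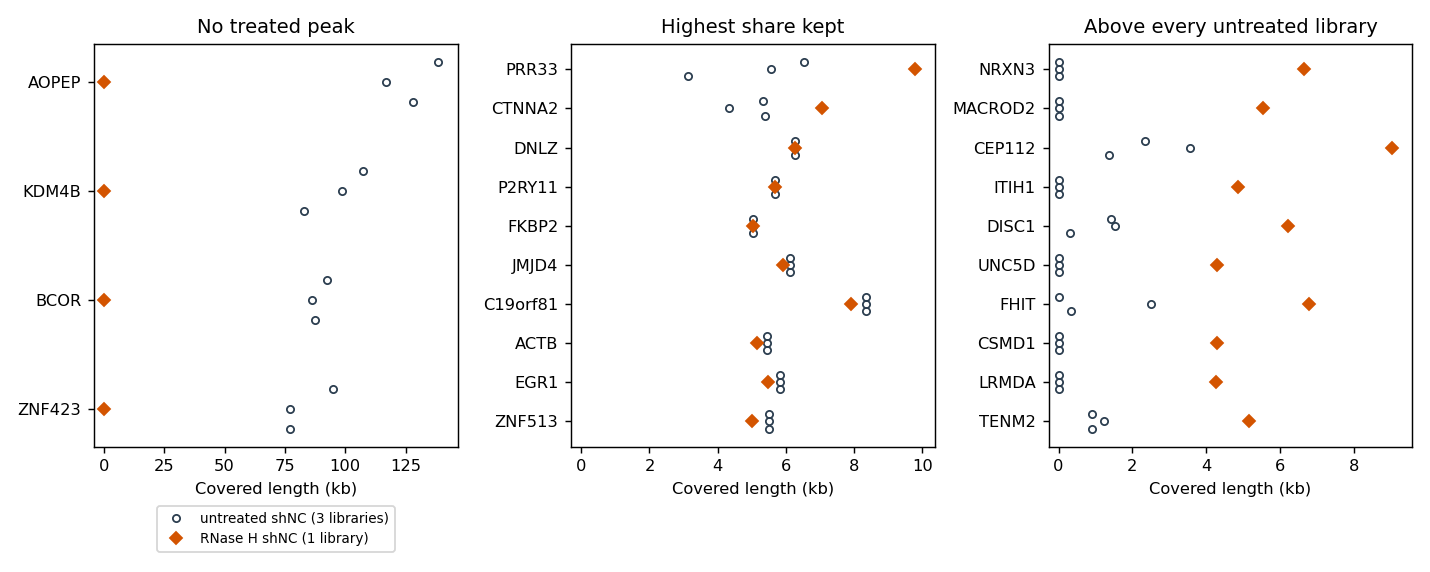
Covered length in kb of the 4 genes with the longest lost coverage, the 10 with the highest share kept among those with at least 5 kb untreated, and the 10 with the largest excess over the highest untreated library. Open circles are the 3 untreated shNC libraries and diamonds the treated one, which lies at 0 kb in the left panel, at or near the untreated values in most of the middle panel and to their right in the right panel.

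Both kinds appear when genes are ordered by how much of the window lay under untreated peaks. The share of genes that kept at least 50% was 9.38% where under 10% of the window was covered (388 of 4137 genes) and 0.460% where 25 to 50% was covered (10 of 2176). It was 7.57% where 95 to 100% was covered (91 of 1202). Loss ran the other way, at 61.5%, 73.2% and 43.3% of genes in these 3 classes. Loss also fell with gene length, from 74.5% of genes under 5 kb to 49.7% at 100 to 200 kb and 6.19% over 500 kb (13 of 210). A long gene offers more bases on which any treated peak can fall, and this was not separated from other effects of length. Of the 210 genes over 500 kb, untreated shTDP43 replicate 1 lacked a peak in 13.8%, more than its 6.48% under 5 kb, so the order by length was the opposite in that library.

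Some genes had more coverage after RNase H than in any untreated library. Over all 19970 protein-coding genes these were 815 (4.08%). Of the 6072 genes without any untreated peak, 541 had a treated one (8.91%). With every untreated list cut to the length of the treated one, the counts were 1447 and 1300. Under a stricter minimum of 10 for −log10 q, they were 367 and 308. With all peaks, 5531 of the 19970 had no peak in any of the 4 libraries. The 108 genes above every untreated library among the 12923 had a median span of 459 kb, and 69.4% of them were longer than 200 kb, against 7.24% over all 12923. NRXN3, a presynaptic adhesion gene on chromosome 14 from 78170373 to 79868291, had no untreated peak and 6.66 kb under treated peaks. MACROD2, an ADP-ribosylhydrolase gene, had 0 kb in all untreated libraries and 5.56 kb treated. UNC5D, a netrin receptor gene, and CSMD1 went from 0 kb to 4.31 and 4.30 kb, and LRMDA from 0 kb to 4.26 kb. These genes carried treated peaks where all 3 untreated libraries had none. CEP112, a centrosomal protein gene, had 2.34, 3.56 and 1.37 kb untreated and 9.05 kb treated. DISC1, a neuronal scaffold gene, had 1.43, 1.53 and 0.308 kb and then 6.23 kb, and FHIT had 0, 2.50 and 0.348 kb and then 6.80 kb. TENM2, a teneurin adhesion gene, had 0.914, 1.24 and 0.914 kb and then 5.16 kb.

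ITIH1 is the short exception among them. It encodes a heavy chain of the inter-alpha-trypsin inhibitor, spans 14.5 kb on chromosome 3 from 52777599 to 52792068, and had no untreated peak and 4.88 kb treated. Its treated peak ran on into ITIH3 and was 9217 bp wide, the widest treated peak without any untreated one. The treated shTDP43 library had a peak of 9200 bp there, and untreated shTDP43 replicates 2 and 3 covered 1.13 and 1.73 kb of ITIH1. The treated shTDP43 library also covered 4.85 kb of NRXN3, 3.52 kb of CSMD1 and 4.36 kb of LRMDA. Of the 541 genes with treated peaks only, 257 had a peak in the treated shTDP43 library (47.5%, Wilson interval 43.3 to 51.7). The share was 16.5% of all protein-coding genes, but counted without the 1 kb on each side, so these 2 shares are not on the same window. These 541 genes were long, with a median span of 106 kb against 24.2 kb over all protein-coding genes. Of the 541, 51 had a peak in any of the 3 untreated shTDP43 libraries (9.43%, 7.24 to 12.2). The same share over all 6072 genes without an untreated shNC peak was not computed. In untreated shTDP43 replicate 1 alone, 48 of those 6072 genes had a peak. Of the 8303 genes that lost all peaks, 94.4% had no peak in the treated shTDP43 library either, against 77.0% of all 12923 genes. Of the 533 that kept at least 50%, 304 kept at least 50% of the shTDP43 untreated mean there (57.0%). The same held for 1.64% of the genes that kept less than 50% and for 0.241% of those that lost all peaks.

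Wide untreated regions were overlapped by a treated peak far more often than narrow ones, but mostly over a small part of their length. Untreated peaks were merged where they touched, and 51083 regions had a peak in at least 2 untreated libraries. A treated peak overlapped 4.84% of regions under 0.5 kb (289 of 5977) and 4.13% of those of 1 to 2 kb (524 of 12680). The share rose to 15.1% at 5 to 10 kb, 40.3% at 10 to 20 kb and 75.4% over 20 kb (563 of 747, Wilson interval 72.2 to 78.3). The covered share of the summed length was 4.50% under 0.5 kb, 1.44% at 2 to 5 kb and 8.36% over 20 kb. An overlapped region under 1 kb was covered whole at the median (100%), while an overlapped region over 20 kb was covered over 5.97%. Treated peaks had a median width of 458 bp and a maximum of 16518 bp. A single treated peak can therefore fill a narrow region but not one over 20 kb, and wide regions offer more bases to overlap. How far these widths shaped the shares was not tested. Untreated shTDP43 replicate 1 overlapped 19.7% of regions under 0.5 kb and all 747 over 20 kb. At a −log10 q of at least 10 in every list the order of the median widths turned, with 2964 bp for overlapped and 3833 bp for lost regions, against 4502 and 1494 bp with all peaks.

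**Figure D3:**
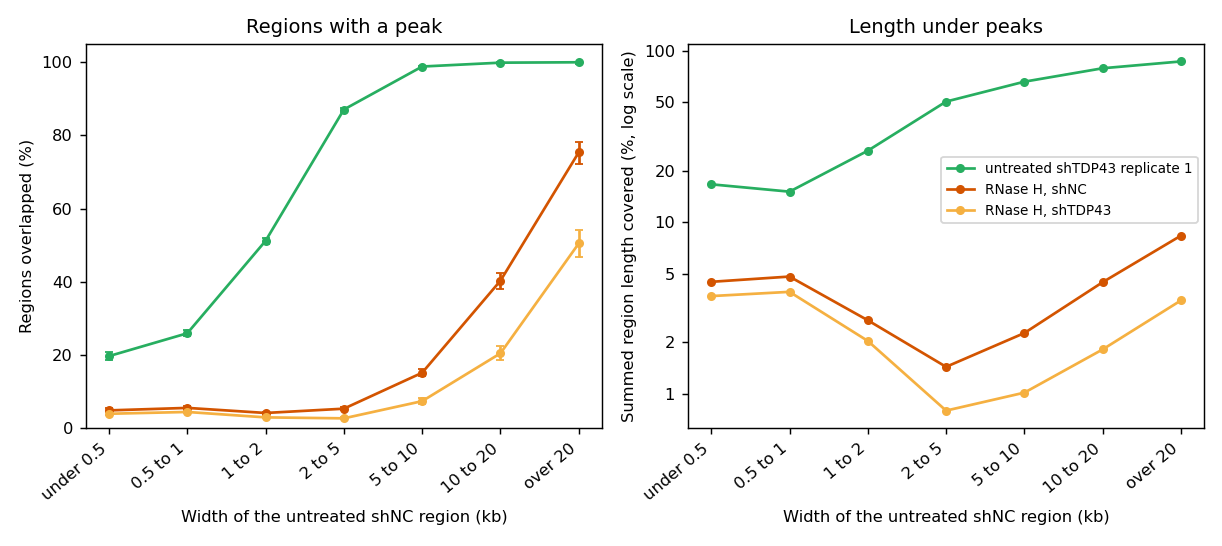
Share of untreated shNC regions overlapped by a peak (left, percent, with 95% Wilson intervals) and share of their summed length under peaks (right, percent, log axis), by region width in kb, for the treated shNC and shTDP43 libraries and untreated shTDP43 replicate 1. The treated shNC line runs from 4.84% to 75.4% of regions on the left and is lowest at 2 to 5 kb, at 1.44% of length, on the right.

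The longest region without a treated peak was 58.5 kb on chromosome 9 from 95072131 to 95130675, at AOPEP, FANCC and the microRNA genes MIR23B and MIR27B. Next came 53.4 kb at BAIAP2 and AATK on chromosome 17 and 48.9 kb at GRIN1, an NMDA receptor subunit gene, on chromosome 9. The longest region with a treated peak was 175.6 kb at ZMIZ1, of which 6.64 kb was covered. A region of 61.6 kb at WDR25 and BEGAIN on chromosome 14 kept 19.3 kb, and one of 65.6 kb at SAFB and RPL36 on chromosome 19 kept 16.9 kb. At the other end, a region of 5.78 kb at CFAP92 and EFCC1 on chromosome 3 was covered whole in both treated libraries.

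Untreated peaks with high fold enrichment were overlapped by treated peaks most often. Fold enrichment over local background is the authors' own value for a peak and was used only to rank peaks within a list. In the lowest decile of untreated peaks by fold, 2.79% ± 0.72 overlapped a treated peak (SD, n = 3), and in the ninth decile 7.56% ± 1.09. In the highest decile it was 28.2% ± 0.42. The highest decile was also above the others within each width class up to 20 kb. Of peaks of 0.5 to 1 kb, 39.7% ± 9.10 of those in the highest decile by fold were overlapped, against 4.19% ± 1.30 of the others. The gap was smaller in the neighbouring classes, with 14.4% ± 7.44 against 3.15% ± 0.76 under 0.5 kb, 6.60% ± 0.97 against 3.59% ± 0.84 at 1 to 2 kb and 12.2% ± 0.53 against 4.57% ± 0.33 at 2 to 5 kb.

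Along genes, the drop was deepest at the start. Coverage was followed over 8287 protein-coding genes of at least 10 kb with a known strand. Within 1 kb of the start, 60.2% ± 2.93 of bases lay under untreated peaks (SD, n = 3) and 1.40% under treated ones, a ratio of 2.33%. Within 1 kb of the gene end the values were 34.6% ± 1.49 and 1.72%, a ratio of 4.97%. From 10% to 15% into the span they were 9.04% ± 0.73 and 0.480%, a ratio of 5.31%. The promoter maximum that stands out without treatment lay slightly below the level at gene ends after it. Untreated shTDP43 replicate 1 kept that maximum, with 44.8% near starts and 27.4% near ends.

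**Figure D4:**
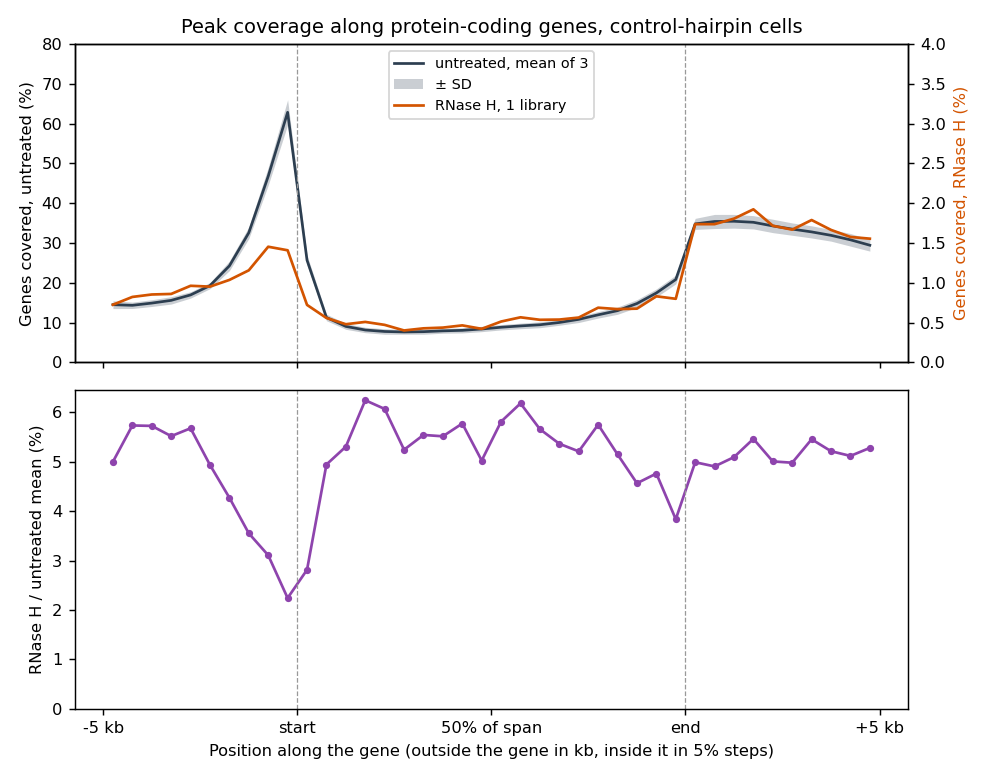
Share of 8287 protein-coding genes under peaks by position (top, percent), for untreated shNC libraries (mean and SD of 3, left axis) and the treated library (right axis, a scale 20 times finer), and the treated value as a percent of the untreated mean (bottom). The ratio is lowest next to the start, at 2.24% in the last 500 bp before it, and runs from 3.84% to 6.24% beyond the first 5% of the span.

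Promoters that kept a peak and promoters that lost it had close median base composition. RefSeq (GRCh38.p14) promoter windows of 300 bases, from 250 before to 50 after the start, were matched to 13792 protein-coding genes. Of 6446 windows that overlapped a peak in all 3 untreated libraries, 286 overlapped a treated peak (4.44%, Wilson interval 3.96 to 4.97). Median GC content was 65.8% in these 286 and 66.7% in the 6160 that lost the peak, with medians of 27 and 28 CG dinucleotides. Windows without any peak had a median GC content of 55.7% and 9 CG dinucleotides. GC skew, the excess of G over C on the gene's strand that favours R-loops, had a median of 2.71% in kept windows (quartiles −7.18 and 11.2) and 0.498% in lost ones (−8.90 and 9.64). The following windows are shown 5′ to 3′ on the gene's strand, with each CG in capitals, because they are GC-rich windows with opposite outcomes. EGR1 and ZNF513 lay under peaks over all 300 bases in all 4 libraries, and KDM4B and MAML3 over all 300 bases in the 3 untreated libraries and 0 bases in the treated one.
EGR1, chr5:138465229-138465528, + strand: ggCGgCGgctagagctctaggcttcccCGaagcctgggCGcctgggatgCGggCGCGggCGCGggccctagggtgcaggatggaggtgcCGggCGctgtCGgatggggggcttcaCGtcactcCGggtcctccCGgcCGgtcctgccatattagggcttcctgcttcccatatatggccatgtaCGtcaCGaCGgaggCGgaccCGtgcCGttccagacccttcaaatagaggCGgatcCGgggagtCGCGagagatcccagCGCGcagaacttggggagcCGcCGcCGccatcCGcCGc
ZNF513, chr2:27380685-27380984, - strand: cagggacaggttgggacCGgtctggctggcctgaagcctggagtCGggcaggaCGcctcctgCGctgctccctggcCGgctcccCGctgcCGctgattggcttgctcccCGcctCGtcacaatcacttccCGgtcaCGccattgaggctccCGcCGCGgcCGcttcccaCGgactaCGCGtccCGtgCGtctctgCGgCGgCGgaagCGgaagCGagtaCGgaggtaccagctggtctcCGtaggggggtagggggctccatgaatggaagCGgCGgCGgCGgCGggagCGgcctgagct
KDM4B, chr19:4968863-4969162, + strand: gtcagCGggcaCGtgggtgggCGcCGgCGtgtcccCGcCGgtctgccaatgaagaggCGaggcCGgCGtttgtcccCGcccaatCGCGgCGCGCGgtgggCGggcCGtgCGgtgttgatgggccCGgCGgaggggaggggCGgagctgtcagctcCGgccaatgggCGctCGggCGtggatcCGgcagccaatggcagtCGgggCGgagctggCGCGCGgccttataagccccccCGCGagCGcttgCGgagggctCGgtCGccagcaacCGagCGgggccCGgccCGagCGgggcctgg
MAML3, chr4:140154135-140154434, - strand: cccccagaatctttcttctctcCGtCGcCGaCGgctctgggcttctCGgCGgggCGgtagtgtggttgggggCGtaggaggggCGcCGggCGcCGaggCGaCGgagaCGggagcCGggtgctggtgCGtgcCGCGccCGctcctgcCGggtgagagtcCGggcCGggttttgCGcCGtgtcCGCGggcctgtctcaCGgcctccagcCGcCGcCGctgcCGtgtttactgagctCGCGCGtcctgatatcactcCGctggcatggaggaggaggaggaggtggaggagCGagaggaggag
The EGR1 and ZNF513 windows hold 33 CG each, and those of KDM4B and MAML3 hold 43 and 37. GC content was 69.3%, 70.7%, 76.7% and 71.3% in that order, and GC skew 6.73%, 4.72%, 16.5% and 16.8%, so these 2 lost windows had the higher skew. Other windows went the other way. The lost MPRIP window, with 76.3% GC, had a skew of −22.3%, and the kept P2RY11 window, with 62.7% GC, had 19.1%. The windows shown therefore do not stand for their groups in skew.

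Peak ends that libraries shared to the base lay at the cutting sites of the restriction enzymes. This could be read only inside the RefSeq promoter windows, since no genome sequence was used. The motifs were GAATTC (EcoRI), AAGCTT (HindIII), TGTACA (BsrGI), AATATT (SspI) and TCTAGA (XbaI), each of which reads the same on both strands and was found in 3.52% to 6.98% of windows. A peak end counted as at a site within 5 bases of the middle of the motif, which holds for 1.09% of all promoter positions. Of 471 peak ends that all 3 untreated libraries shared to the base, 470 were at a site (99.8%). All 11 of those that the treated library shared as well were at one. Of all 308 treated ends in the windows, 45 were at a site (14.6%). Of 287 treated ends found in no untreated library, 24 were at a site (8.36%, Wilson interval 5.68 to 12.1), and of 3297 ends found in 1 untreated library, 337 were (10.2%, 9.23 to 11.3). The ends shared by all 4 libraries show the cut in the sequence. In 5 of them, given on the + strand of GRCh38.p14 with the motif in capitals, the peak end lies in the middle of 30 bases.
COPS3 promoter, EcoRI site, chr17:17281360-17281389, + strand: gaaacagcctGAATTCgccgtagccggaaa
MED1 promoter, SspI site, chr17:39451320-39451349, + strand: cgaaatctcgcgAATATTggtcaatgcgtc
EIF1 promoter, HindIII site, chr17:41688650-41688679, + strand: ctccgagacagatcAAGCTTtccctccccc
EEF2 promoter, XbaI site, chr19:3985604-3985633, + strand: ggcgcggcgcTCTAGAatagaagctgggca
HAND2 promoter, BsrGI site, chr4:173530211-173530240, + strand: aagatctccaTGTACAgctacatctttagg
Where a peak ends at a cut, its covered length runs to the end of the restriction fragment, whether or not the hybrid did. COPS3 encodes a signalosome subunit, MED1 a Mediator subunit, EIF1 and EEF2 factors of translation, and HAND2 a transcription factor of sympathetic neurons.

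Treated peaks fell into classes by their fold enrichment. Of all 15504, 7346 overlapped no untreated peak (47.4%) and 6251 overlapped one in all 3 untreated libraries (40.3%). The share without any untreated peak was 51.0% at a fold under 5 (3535 of 6937), 31.0% at 10 to 20 and 14.1% at 20 to 50, and 0 of 45 at 50 or more, which allows up to 7.87% (upper Wilson bound). The share that overlapped a peak of the treated shTDP43 library ran from 13.8% to 96.2%, 100% and 100% in the same classes. Treated peaks that begin and end at the same bases as an untreated peak made up 5.65% of the list (876), but 0.231% at a fold under 5 and 73.3% at 50 or more (33 of 45). Of the peaks without any untreated one, 33.8% overlapped a treated shTDP43 peak and 6.17% an untreated shTDP43 peak, against 36.1% and 50.7% of all treated peaks.

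**Figure D5:**
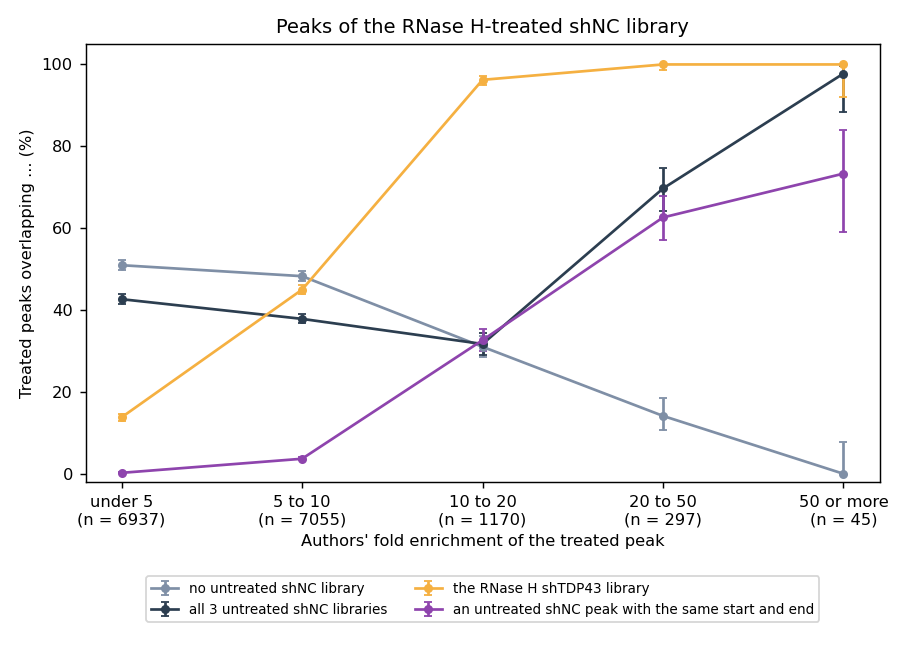
Peaks of the treated shNC library by the authors' fold enrichment (x, number of peaks below each class) and the percent that overlap no untreated shNC library, all 3, the treated shTDP43 library, or share both ends with an untreated shNC peak (y, 95% Wilson intervals). With rising fold the peaks without an untreated counterpart go from 51.0% to 0% and those found in the treated shTDP43 library from 13.8% to 100%.

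Several of the strongest treated peaks kept the exact ends of untreated ones. The highest fold, 124, belonged to a peak of 915 bp in PMF1, a kinetochore gene, on chromosome 1 from 156232868 to 156233782, and the treated shTDP43 library had a peak of 915 bp there. A peak of 2659 bp on chromosome 7 from 27507336 to 27509994, outside any gene, had a fold of 119.7 and the same width in all 8 lists. At EEF1A1, which encodes a translation elongation factor, a treated peak of 1359 bp with a fold of 118 lay within untreated peaks of 10511, 5378 and 9697 bp. Peaks of 1077 bp in EVI5, 1614 bp in BABAM2 and 443 bp in NEGR1 had the same ends in the treated library and all 3 untreated ones. Among peaks without an untreated one, the highest folds were 35.1 in ALMS1, a ciliary gene, over 872 bp, and 34.0 in ANK2, an ankyrin gene, over 845 bp. Both were called in the treated shTDP43 library with the same width.

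Genes of adrenergic neuroblastoma identity, the state of this cell line, often kept part of their coverage. Of 20 with an untreated mean of at least 500 bp, 3 lost all peaks (15.0%, against 64.2% over all coding genes), 3 kept at least 50%, and all 20 lay below every untreated library. The summed coverage kept was 12.4%, against 5.19%, and the median gene kept 11.5%, against 0%. Loss over all coding genes also differed with untreated coverage. It was 67.5% at 5 to 10 kb covered, 34.8% at 20 to 50 kb, and 43.3% where 95 to 100% of the window was covered. How far untreated coverage shaped the values of this list was not tested. PHOX2A, a master regulator of noradrenergic neurons, had 7.10 kb in each untreated library and 6.34 kb treated. GATA2 had 15.8 kb in each and 8.74 kb treated, and GATA3 had 30.4, 29.3 and 30.7 kb and then 11.2 kb. TFAP2B kept 3.52 kb of 28.9, 28.8 and 28.6 kb, while ZNF536 kept 0.382 kb of 108, 97.1 and 83.1 kb. These transcription factor genes thus differed widely in what they kept. Of 12 mesenchymal genes, which mark the opposite state of neuroblastoma, 6 had enough untreated coverage and 4 of these lost it all (66.7%, near the 64.2% over all coding genes), VIM and FOSL1 among them. WWTR1, a Hippo pathway coactivator gene, had no untreated peak and 1.98 kb treated. Peaks show hybrids and not transcript levels, so these lists do not measure the state of the cells.

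Loci often used as controls in DRIP assays differed in what they kept. TFPT had 10.6 kb in each untreated library and 8.77 kb treated, and RPL13A had 6.70 kb in each and 4.51 kb treated. BTBD19 went from 8.44, 8.51 and 7.19 kb to 2.13 kb. CALM3, a calmodulin gene, went from 11.7, 11.4 and 11.2 kb to no peak, ING3 from 3.93, 3.93 and 3.57 kb to none, and SNRPN from 2.28, 2.69 and 2.44 kb to none. Of the 8 control loci, 3 lost all peaks (37.5%, against 64.2% over all coding genes) and 4 of the 8 kept at least 50%, against 4.12%.

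Among highly transcribed housekeeping genes 9 of 20 lost all peaks (against 64.2% over all coding genes), and 11.4% of the summed coverage was kept, against 5.19%. EEF2 kept 5.74 of 10.6 kb and the tubulin gene TUBA1A 2.49 of 5.68 kb, while PKM, a glycolytic enzyme gene, had 31.0, 27.5 and 30.6 kb and then none. Of 84 ribosomal protein genes 54 lost all peaks (64.3%, level with the 64.2% over all coding genes), and 6 kept at least 50% (7.14%, against 4.12%). RPS2 kept 3.94 of 4.77 kb, while RPS3 kept 0.941 of 24.1 kb (untreated means). Of 57 replication-dependent histone genes 47 lost all peaks (82.5%, against 64.2% over all coding genes). Their median span was 0.494 kb, and 74.5% of all tested coding genes under 5 kb lost all peaks. H1-4 is the 1 that kept at least 50%, at 1.63 of 2.05 kb. Of 71 genes for subunits of oxidative phosphorylation 54 lost all peaks (76.1%, against 64.2%), and NDUFB10 kept 2.77 of 4.00 kb. Their median span was 9.24 kb, and loss was 72.8% over all tested coding genes of 5 to 20 kb.

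Of 31 genes whose products act on R-loops, 18 lost all peaks (58.1%, against 64.2% over all coding genes), and 6.33% of summed coverage was kept. DDX5, an RNA helicase gene, kept 5.32 kb of 9.60, 9.10 and 10.0 kb, and is the 1 that kept at least 50%. The splicing factor gene SRSF1 kept 4.03 kb of 17.4, 12.2 and 15.4 kb, and DHX9, another helicase gene, 1.33 kb of 29.2, 23.8 and 26.8 kb. Of 22 DNA damage response genes 13 lost all peaks (59.1%, against 64.2%), and 0 kept 50%, where 4.12% did over all coding genes. PRKDC, the catalytic subunit of the DNA-dependent kinase, had 47.5, 37.1 and 40.6 kb and then none, and ATR kept 1.16 of 5.54 kb (untreated mean).

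Of 23 synaptic genes 7 lost all peaks (30.4%, against 64.2% over all coding genes), and their median span was 87.0 kb, against 29.3 kb. SHANK1, a postsynaptic scaffold gene, kept 7.88 kb of 55.1, 52.9 and 48.5 kb, while NRXN2, a neurexin gene, had 53.5, 51.2 and 47.9 kb and then none. NLGN1, a postsynaptic adhesion gene, had 1.15, 0.891 and 0 kb untreated and 4.48 kb treated. Of 935 genes over 200 kb, 222 lost all peaks (23.7%, against 64.2%) and 199 kept at least 50% (21.3%, against 4.12%). Length kept in these genes can include treated peaks where no untreated peak lay, and this was not separated. Above every untreated library lay 75 of them, against 108 of all 12923 genes (0.836%). HDAC9, a histone deacetylase gene, kept 9.44 kb of 35.5, 34.8 and 32.8 kb.

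In clustered gene families little coverage was left. Of 221 zinc finger genes on chromosome 19, 179 lost all peaks (81.0%, against 64.2% over all coding genes). Of their summed coverage 2.64% was kept, against 5.19%. ZNF254 went from 35.0, 26.3 and 30.6 kb to none, and ZNF91, a repressor of retroelements, kept 3.78 of 24.1 kb (untreated mean). Of 43 clustered protocadherin genes, which share exons and peaks, 38 lost all peaks (88.4%, against 64.2%). PCDHGA1 and the genes that share its peaks went from 32.5, 32.2 and 31.4 kb to 0.931 kb. Of 11 HOX genes 10 lost all peaks (90.9%, against 64.2%), and this list is short. HOXD3 went from a mean of 21.1 ± 0.18 kb (SD, n = 3) to none. HOXA3, HOXA5 and HOXA6 had no untreated peak and 2.52, 0.878 and 1.93 kb treated, and the treated shTDP43 library had 2.19, 0.551 and 1.89 kb there. HOXA5 and HOXA6 lie within the span of HOXA3, so these lengths share peaks and are of 1 locus.

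Few small RNA genes had a treated peak. The shares by gene class were counted without the 1 kb on each side. Of 443 transfer RNA genes, 11.4% ± 0.13 overlapped an untreated peak (SD, n = 3) and 0.451% a treated one. For microRNA genes the shares were 25.8% ± 0.71 and 2.30%, and for small nucleolar RNA genes 19.4% ± 0.95 and 2.01%. For long noncoding RNA genes they were 24.6% ± 0.97 and 8.81%, and for protein-coding genes 65.7% ± 1.17 and 25.8%. Of 49 ribosomal RNA genes on these chromosomes, 10.2% ± 2.04 overlapped an untreated peak and 10.2% a treated one. Small RNA genes span fewer bases than long noncoding RNA and protein-coding genes, and how far this shaped the shares was not tested. Of 25 small nucleolar RNA host genes 18 lost all peaks (72.0%, against 64.2% over all coding genes), and SNHG9 kept 1.64 of 2.17 kb.

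Chromosome 7 stood apart in the share of genes that lost all peaks. It was 48.8% of 598 genes there and between 60.9% and 73.8% on the other chromosomes. The chromosome held 1284 treated peaks, second to chromosome 1 with 1524. Over the whole chromosome, with the bases between genes included, the treated length under peaks was 11.1% of the untreated mean. It was 7.94% over all chromosomes used. Both ratios count treated peaks wherever they lay, so they are not the share of untreated length that stayed covered. This whole-chromosome ratio ran from 2.87% on chromosome 22 to 17.4% on chromosome 13.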

How the data were processed

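DRIP-seq peaks were called per library, and the lists were used as the authors deposited them. Alignment and calling tools were Bowtie2 2.4.4, SAMtools and MACS2 2.2.6 on hg38, per the submitters' processing notes. The sources used here do not give the caller's control, and the input library was not analysed here. Per the file headers and peak names, each peak carries a fold enrichment (a ratio over local background). The deposited lists also give −log10 p and −log10 q values, and a score that is 10 times the −log10 q without its decimals. These were used only within a list. No read counts are in the lists. Relative depth was solved from fold and p at 5000 summits per library.

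Covered bases per RefSeq GRCh38.p14 gene span plus 1 kb each side were summed with Python 3.11.15, numpy 2.4.6 and pandas 2.3.3, on chromosomes 1 to 22 and X. GRCh38.p14 shares its chromosome coordinates with hg38. Genes with an untreated mean of at least 500 bp entered the categories. Keeping means a treated covered length, anywhere in the window, of at least 50% of that mean. Wilson intervals are at 95% and cover counting error only. The summing was checked base by base in 500 windows, and 0 differed. A covered length can saturate.

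Named genes were the 10 with the longest untreated mean among those that lost all peaks, the 10 with the highest share kept (untreated mean of at least 5 kb), the 10 with the largest excess over the highest untreated library, the 5 longest with treated peaks only and the 5 longest untreated, plus up to 4 per list by untreated and by treated length, TARDBP and the DRIP control loci. Genes at regions, peaks and peak ends are those that overlap the longest, strongest or shared ones. Some genes under this rule are not reported here. All list symbols matched the annotation. The comparison, its members and the lists were chosen with earlier results of these data known. Alternatives were stricter q, equal list lengths, other flanks, minimums and overlaps, each untreated library left out, and an untreated shTDP43 library in place of the treated one.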

Additional observations from a re-analysis of the deposited data

Results flagged for a closer look

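Peaks outside chromosomes 1 to 22 and X, which no comparison above uses, made up 0.488% of the treated list (76 of 15580 peaks) and between 0.117% and 0.140% of the untreated lists. Their number was 76 after treatment and 103, 89 and 83 before it. On the mitochondrial chromosome 5 treated peaks covered 14373 bp, and 4, 4 and 5 untreated peaks covered 14826, 14863 and 14362 bp. On unplaced and unlocalised sequences 70 treated peaks covered 52746 bp, and the untreated peaks 84338, 83585 and 70648 bp. In the treated shTDP43 library the share was 0.538%.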

How the results depend on the processing

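No paired analysis was possible because there is 1 treated library and it carries no replicate number. Of 89 recomputed values, 42 moved by less than their interval or by under 1.5 times and 47 by more. The median share of coverage kept per gene was 0% under every alternative except the untreated shTDP43 library.

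At a −log10 q of at least 5, 6.00% of regions were overlapped, lost and overlapped regions had medians of 2565 and 4893 bp, and 54.6% of treated peaks had no untreated one. At 10, 228 genes kept 50%, 367 lay above every untreated library and 308 had treated peaks only. There 3.26% of regions were overlapped, the medians were 3833 bp lost and 2964 bp overlapped, and 66.1% of treated peaks had no untreated one. With every untreated list cut to its strongest peaks at the treated list's length, 1447 genes lay above every untreated library, 1300 had treated peaks only, 18.4% of regions were overlapped, the medians were 3840 and 10024 bp, and 63.5% of treated peaks had no untreated one. With an untreated minimum of 2000 bp, 264 genes kept 50%. Over regions in all 3 untreated libraries, 10.1% were overlapped, with medians of 2318 bp lost and 6450 bp overlapped. Asking for 50% of the region gave 2.63%, 1598.5 and 833 bp, so this setting turned the order of the medians too. Asking for 50% of the treated peak gave 50.4% without an untreated one, and adding shTDP43 untreated peaks gave 44.5%. With untreated shTDP43 replicate 1 in place of the treated library, 828 genes had no peak, 9326 kept 50%, 266 lay above every library and 48 had peaks where shNC had none. The median share was 69.4%, 58.3% of regions were overlapped, the medians were 813 and 2698 bp, and 6.72% of its peaks had no shNC peak. Leaving out each untreated library gave 8.38% to 9.15% of regions, 1677 to 1725 bp lost, 4768 to 5911 bp overlapped and 48.2% to 52.2% of treated peaks. It gave 8246 to 8361 genes lost, 513 to 536 kept, 823 to 909 above and 553 to 640 with treated peaks only. Chosen after the data were seen, a threshold of 25% gave 1095 kept genes and one of 75% gave 314. The cause of these shifts was not tested. With a shallower treated library and no read counts, a missing peak is one not called at this depth.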
